A study of Mus musculus with 11 samples.

Results

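The HoxB cluster is 1 of the 4 mammalian Hox clusters, and it was followed here while mouse embryonic stem cells were turned toward hindbrain. Its 10 genes, Hoxb1 to Hoxb9 and Hoxb13, were taken by symbol from a table of 38197 genes, and all 10 were present. They are described in their order along the chromosome, beginning at Hoxb1.

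Hox genes encode homeodomain transcription factors that give cells their position along the head-to-tail axis. Genes at the Hoxb1 end are known to be switched on earlier and to reach further forward, into the hindbrain, and those toward Hoxb13 later and further back, in spinal cord and trunk. Retinoic acid, a vitamin A derivative, is known to open the cluster through its receptors, which bind direct repeats of a short recognition site. Hox proteins bind DNA together with PBX and MEIS proteins of the TALE family. Hoxb13 lies apart from the other genes of the cluster.

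The 11 libraries were made from polyadenylated RNA of E14, a mouse embryonic stem cell line labelled strain 129 and wild type, grown as a monolayer. At days 0, 1, 2 and 3 there were 2 unsorted libraries each, and a further 3 libraries came from progenitors sorted for the surface protein Prominin-1. The sorted libraries are called day 3.5 here, although another of their labels gives 3 days. Every library carries the same treatment label, retinoic acid (RA) and the hedgehog agonist SAG over days 0 to 3, including the day 0 stem cells. Separate cultures are not named for replicate libraries in the labels, and the p-values therefore measure the spread between these libraries, which may be technical.

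Library totals ran between 13173674 and 30384599 counts, and the lowest were the 3 sorted libraries, at 13173674 to 17113430. The 7 pluripotency markers summed to 1673 to 1943 CPM (counts scaled to the library total and TMM factor) on day 0, to 31.9 to 34.7 CPM on day 2 and to 16.1 to 22.2 CPM on day 3. Neural progenitor markers summed to 1155 to 1165 CPM at day 3 and 441.6 to 444.3 CPM at day 0. Sample names of the sorted libraries carry a different prefix, so the sort, the later time and that prefix cannot be told apart. In bulk RNA, fewer cells of a type and less RNA per cell cannot be told apart either.

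The 10 genes lie on the plus strand of chromosome 11 (GRCm38 coordinates, GENCODE M21 genes). Hoxb1 occupies 96365752 to 96368256, and Hoxb2 begins 15.227 kb from its start. Hoxb3 and Hoxb4 begin 42.426 and 47.485 kb away, and Hoxb5 and Hoxb6 62.416 and 73.276 kb away. The Hoxb7, Hoxb8 and Hoxb9 starts lie at 79.129, 83.847 and 94.295 kb. Hoxb13 starts at 171.436 kb, after a gap of 77.141 kb that is the longest between neighbours. RefSeq promoters, 250 bases before to 50 after the start, were at hand for 3 of the 10 genes, and they are shown because Hoxb1 later fell while Hoxb4 and Hoxb8 did not. Capitals mark TGATNNAT, the pattern bound by PBX with a Hox partner, searched on both strands. Each sequence runs 5′ to 3′ on the plus strand of GRCm38.p6, at chr11:96365508-96365807 for Hoxb1, chr11:96318017-96318316 for Hoxb4 and chr11:96281655-96281954 for Hoxb8.
Hoxb1 promoter: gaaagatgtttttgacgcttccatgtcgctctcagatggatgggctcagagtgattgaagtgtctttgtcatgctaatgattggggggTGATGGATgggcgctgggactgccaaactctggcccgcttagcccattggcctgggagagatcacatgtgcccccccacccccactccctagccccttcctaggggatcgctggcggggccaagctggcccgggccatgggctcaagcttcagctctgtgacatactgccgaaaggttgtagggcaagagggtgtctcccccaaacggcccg
Hoxb4 promoter: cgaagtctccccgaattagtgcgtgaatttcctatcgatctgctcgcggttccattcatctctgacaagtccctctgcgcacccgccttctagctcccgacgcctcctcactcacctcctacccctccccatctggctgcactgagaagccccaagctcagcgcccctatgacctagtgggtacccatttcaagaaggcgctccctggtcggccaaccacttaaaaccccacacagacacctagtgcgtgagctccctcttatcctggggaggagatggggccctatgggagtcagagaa
Hoxb8 promoter: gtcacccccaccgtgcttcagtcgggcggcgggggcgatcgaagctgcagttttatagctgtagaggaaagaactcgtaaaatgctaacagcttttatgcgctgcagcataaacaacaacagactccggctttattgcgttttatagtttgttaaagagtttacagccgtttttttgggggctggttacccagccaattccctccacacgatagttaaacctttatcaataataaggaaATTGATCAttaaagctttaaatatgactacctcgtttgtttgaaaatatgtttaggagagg

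The Hoxb1 sequence holds 1 such match, 162 bases before the start, and the Hoxb8 sequence holds 1 on the minus strand, 11 bases before the start. The Hoxb4 sequence holds 0 of these and 1 retinoic acid receptor recognition site (AGGTCA, on the minus strand, 81 bases before the start). None of the 3 holds that site as a direct repeat with 5 or 2 bases between, or the MEIS and PREP pattern TGACAG. Of 32851 RefSeq promoters of this length, 8.85% hold TGATNNAT, 16.3% hold AGGTCA and 19.2% hold TGACAG, on either strand. The direct repeats occur in 0.00913% each. A match in these letters is a description and not a shown binding site.

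Within the first day, 9 of the 10 genes rose, all except Hoxb13, while 12.0% of all genes tested rose and 8.91% fell (edgeR quasi-likelihood test, Benjamini-Hochberg adjusted p under 0.05 over 16810 genes, 8 unsorted libraries). The median log2 fold change was 3.65 over the 10 HoxB genes and 0.01 over all genes tested. All further p-values are from this test and adjustment unless another is named. All CPM values are TMM-scaled.

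Hoxb1, which marks a single hindbrain segment and helps specify facial motor neurons, had 4.11 and 3.17 CPM on day 0, 50.7 and 52.7 CPM by day 1, 7.55 and 16.9 CPM by day 2, and 0.22 and 0.85 CPM by day 3. Its sorted libraries had 0.42, 0.32 and 0.59 CPM. Both day 1 libraries stood above all others, and both day 3 libraries lay below both day 0 libraries. Hoxb1 rose by day 1 with a log2 fold change of 3.82 ± 0.50 (SE, adjusted p = 0.00154, n = 2 each). It fell between days 1 and 2 (log2 fold change -2.08 ± 0.46, adjusted p = 0.014) and again between days 2 and 3 (-4.51 ± 0.56, adjusted p = 0.00649). At day 3 it was lower than at day 0 (-2.77 ± 0.56, adjusted p = 0.00283). Without day 2 replicate 1 the first of these falls had an adjusted p of 0.117, and without day 3 replicate 1 the second had 0.0721.

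Hoxb9, near the opposite end and known for thoracic identity, ran much the same course. It had 1.36 and 3.00 CPM on day 0, 44.7 and 32.9 CPM by day 1, 5.02 and 20.9 CPM by day 2, and 0.82 and 2.54 CPM by day 3. The sorted libraries had 2.39, 2.08 and 1.32 CPM. Day 3 overlapped day 0, and day 1 overlapped no other day. Hoxb9 rose by day 1 (log2 fold change 4.17 ± 0.75, adjusted p = 0.00568) and was lower at day 3 than at day 1 (-4.53 ± 0.76, adjusted p = 0.00193). The difference of day 3 from day 0 missed the threshold (-0.36 ± 0.73, adjusted p = 0.701).

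Hoxb6, a gene of posterior hindbrain, spinal cord and trunk mesoderm, had 1 and 2 counts in the day 0 libraries, or 0.03 and 0.09 CPM. It had 6.10 and 6.66 CPM at day 1, 0.97 and 4.33 CPM at day 2, 0.28 and 0.65 CPM at day 3, and 2.99, 2.53 and 1.40 CPM in sorted cells. Day 1 again stood above every other library. With 382 counts over both day 1 libraries against 3 over both day 0 libraries, the scaled ratio was 113 (95% exact interval 38.2 to 548, counting error only), and the test's adjusted p was 0.00203. The day 3 level was below that of day 1 (log2 fold change -3.76 ± 0.70, adjusted p = 0.0034). Against day 0 the day 3 ratio was 8.15 (95% exact interval 2.53 to 41.8), with 29 counts against 3, and the adjusted p was 0.0464. Leaving out any 1 of the 4 libraries of those days lost that call, at adjusted p between 0.0577 and 0.215.

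Hoxb5, the neighbour of Hoxb6, ran an intermediate course. It had 0.51 and 1.16 CPM on day 0, 9.16 and 9.76 CPM by day 1, 2.53 and 9.56 CPM by day 2, and 1.67 and 3.84 CPM by day 3. The sorted libraries had 13.7, 9.14 and 5.07 CPM, the widest relative spread of any HoxB gene above the counting floor there. Hoxb5 rose by day 1 (log2 fold change 3.52 ± 0.70, adjusted p = 0.00914). Its day 3 level was 29.1% of its day 1 mean, and the difference missed the threshold (-1.78 ± 0.63, adjusted p = 0.0517). Leaving out 1 library at a time gave log2 fold changes between -2.49 and -1.29.

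**Figure D1:**
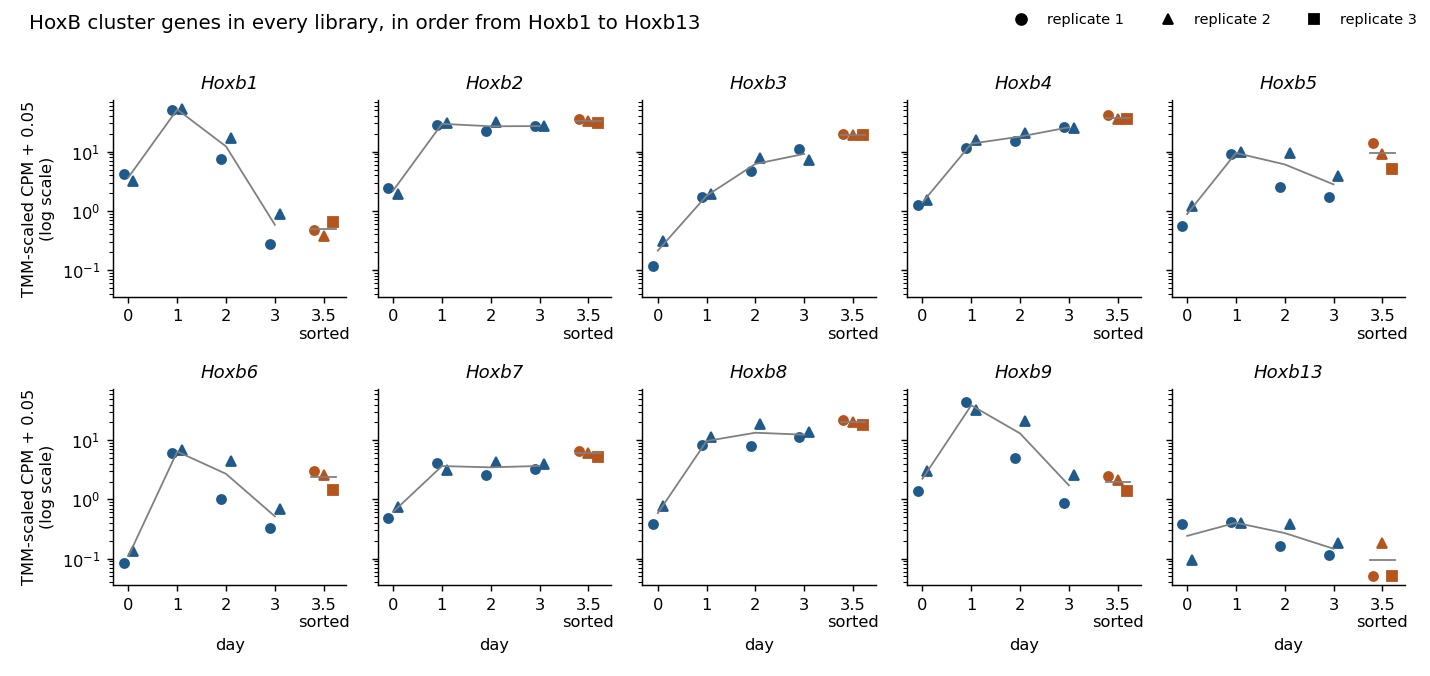
TMM-scaled CPM plus 0.05 on a log axis for each HoxB gene in every library (points) with the group means (lines), for days 0 to 3 and the sorted day 3.5 libraries, in cluster order. Hoxb1 reached 50.7 and 52.7 CPM at day 1 and 0.22 and 0.85 CPM at day 3, whereas Hoxb4 stood at 26.1 and 25.5 CPM at day 3.

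The other 5 expressed genes held 91.6% or more of their day 1 mean at day 3. Hoxb2, which patterns the middle hindbrain segments and is a known target of Hoxb1 in mouse, had 2.41 and 1.88 CPM on day 0, 28.0 and 31.1 CPM by day 1, 22.1 and 31.6 CPM by day 2, and 27.0 and 27.1 CPM by day 3. In sorted cells it had 35.5, 33.3 and 30.7 CPM. The day 2 libraries spanned those of days 1 and 3, the sorted ones reached higher, and the day 3 against day 1 log2 fold change was -0.12 ± 0.23 (adjusted p = 0.707). Its rise by day 1 was 3.77 ± 0.27 (log2, adjusted p = 0.000122).

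Hoxb3, a gene of the posterior hindbrain, was the slowest. Day 0 held 2 and 6 counts, or 0.07 and 0.26 CPM, and day 1 1.66 and 1.84 CPM. It then had 4.68 and 7.64 CPM at day 2, 10.9 and 7.32 CPM at day 3, and 19.8, 18.7 and 19.0 CPM in sorted cells. No day 2 or day 3 library overlapped days 0 or 1, and the 3 sorted libraries lay above all others. Hoxb3 rose between days 1 and 2 (log2 fold change 1.81 ± 0.42, adjusted p = 0.0175) and stood higher at day 3 than at day 1 (2.38 ± 0.43, adjusted p = 0.00261). Leaving out day 1 replicate 1 or day 2 replicate 2 gave the rise between days 1 and 2 an adjusted p of 0.0741 or 0.136.

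Hoxb4, whose expression begins in the last hindbrain segments, had 1.22 and 1.46 CPM on day 0, 11.5 and 15.7 CPM by day 1, 15.0 and 20.9 CPM by day 2, and 26.1 and 25.5 CPM by day 3. The sorted libraries had 42.1, 35.2 and 35.3 CPM. The day 3 libraries lay above all earlier ones. It was higher at day 3 than at day 1 (log2 fold change 0.93 ± 0.26, adjusted p = 0.02), a call lost without day 1 replicate 1, day 3 replicate 1 or day 3 replicate 2 (adjusted p 0.111, 0.0933 and 0.0668).

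Hoxb7 and Hoxb8, genes of spinal cord and trunk in the embryo, resembled Hoxb2. Hoxb7 had 0.44 and 0.69 CPM on day 0, 4.08 and 3.13 CPM by day 1, 2.57 and 4.29 CPM by day 2, 3.27 and 3.97 CPM by day 3, and 6.64, 5.97 and 5.15 CPM in sorted cells. Hoxb8 had 0.34 and 0.73 CPM on day 0, 8.19 and 11.1 CPM by day 1, 8.07 and 18.6 CPM by day 2, 11.1 and 13.6 CPM by day 3, and 22.0, 20.2 and 17.7 CPM in sorted cells. For both genes, libraries of days 1, 2 and 3 overlapped. Both rose by day 1 (log2 fold change 2.68 ± 0.43, adjusted p = 0.00357 for Hoxb7, and 4.20 ± 0.52, adjusted p = 0.00123 for Hoxb8). Against day 1, day 3 differed by 0.01 ± 0.37 for Hoxb7 and 0.36 ± 0.41 for Hoxb8 on the log2 scale, neither past the threshold.

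Hoxb13, a gene of the tail end of the axis and of prostate, had 0 to 11 counts per library and at most 0.36 CPM. It was under 3 counts in 5 libraries and at 0 in 2 of the sorted ones, where a count of 0 allows at most 0.179 and 0.221 CPM. It entered the test on its day 1 counts of 10 and 11, and its F test over days 0 to 3 had an adjusted p of 0.411.

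Over days 0 to 3, 9 of the 10 genes changed in the joint F test, with 53.7% of all genes tested also changed. Between days 1 and 2, 1 gene rose (Hoxb3) and 1 fell (Hoxb1), against 9.65% of all genes rising and 9.99% falling. Between days 2 and 3, Hoxb1 alone fell and 0 rose, against 2.81% of all genes rising and 1.26% falling. Hoxb6 (log2 fold change -2.50 ± 0.70, adjusted p = 0.0819) and Hoxb9 (-2.95 ± 0.72, adjusted p = 0.0566) missed the threshold there. DESeq2 called both, beside 924 of 24339 genes higher and 509 lower. Between days 1 and 3, Hoxb3 and Hoxb4 rose and Hoxb1, Hoxb6 and Hoxb9 fell, against 18.9% of all genes rising and 18.2% falling. Against day 0, 6 genes were higher at day 3 (Hoxb2, Hoxb3, Hoxb4, Hoxb6, Hoxb7 and Hoxb8) and Hoxb1 was lower, against 27.6% of all genes higher and 26.3% lower.

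**Figure D2:**
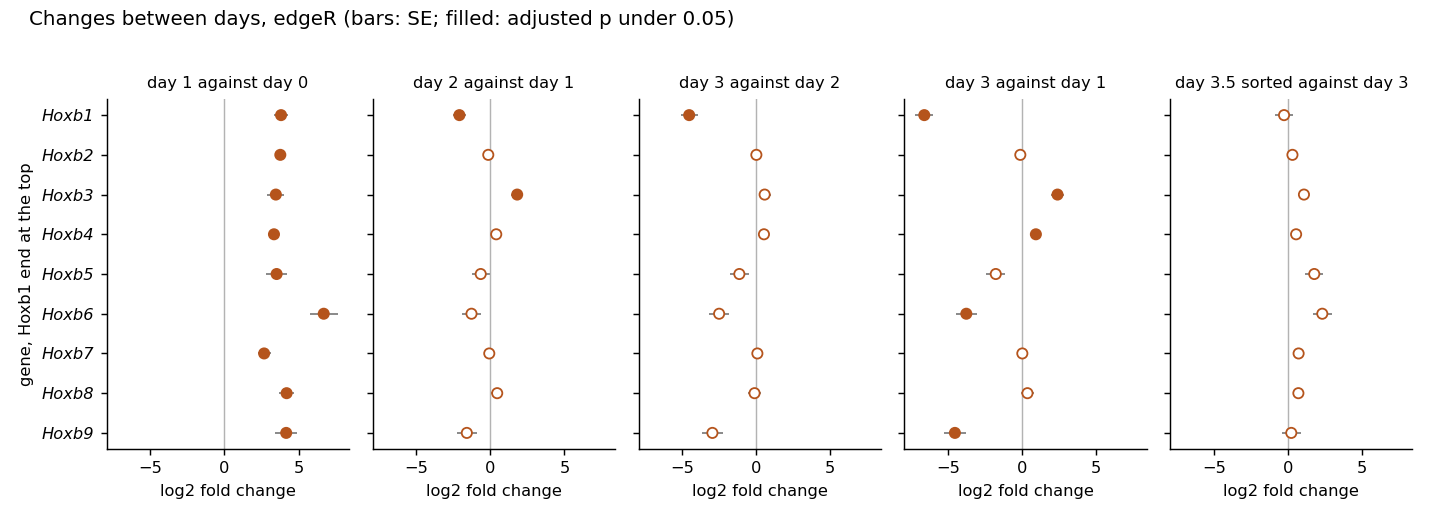
Log2 fold change of each HoxB gene except Hoxb13 in 5 comparisons, with bars for the standard error and filled points for adjusted p under 0.05 in edgeR. The day 1 against day 0 point of Hoxb6 is a fitted value that depends on 3 counts at day 0. The day 3 against day 1 values run between -6.59 for Hoxb1 and 2.38 for Hoxb3.

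The decline did not follow the order of the genes along the chromosome. At day 3, the percentage of the day 1 mean left was 1.03% for Hoxb1, 91.6% for Hoxb2, 521% for Hoxb3, 189% for Hoxb4 and 29.1% for Hoxb5. It was 7.32% for Hoxb6, 100% for Hoxb7 and 4.32% for Hoxb9, and Hoxb8 stood above its day 1 mean. Hoxb1 and Hoxb9, 94.295 kb apart, both fell below 5% of their day 1 mean, while Hoxb2, Hoxb3, Hoxb4, Hoxb7 and Hoxb8 lay between them. Across the 11 libraries, log2 CPM of Hoxb1 and Hoxb9 had a Pearson r of 0.90, and Hoxb5 and Hoxb6 0.95. Pairs among Hoxb2, Hoxb4, Hoxb7 and Hoxb8 had r between 0.96 and 0.98, and Hoxb1 with Hoxb4 had -0.34. These values describe 11 libraries that share days and depth, and the pairs were chosen after their values were seen.

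**Figure D3:**
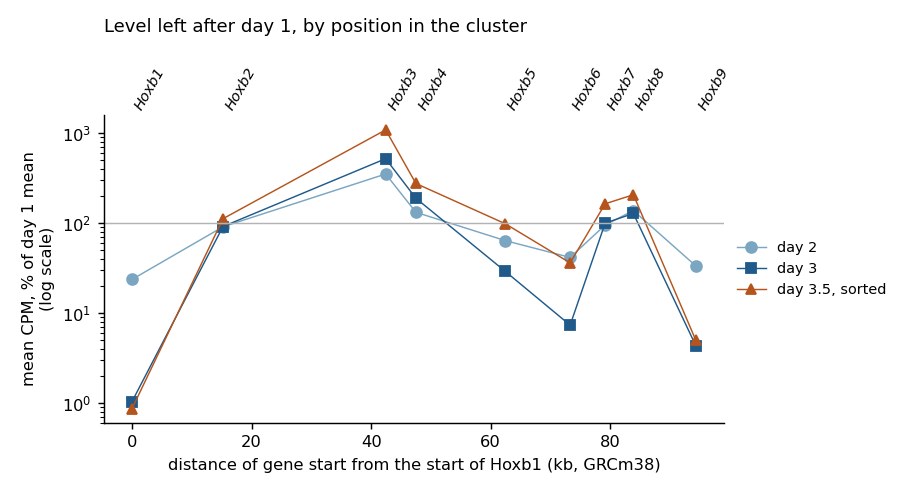
Mean CPM as a percentage of the day 1 mean (log axis) against the distance of the gene's start from that of Hoxb1 in kb, for day 2, day 3 and the sorted day 3.5 libraries. Hoxb13 is not shown. At day 3, Hoxb1, Hoxb6 and Hoxb9 lie at 1.03%, 7.32% and 4.32%, with Hoxb2, Hoxb3, Hoxb4, Hoxb7 and Hoxb8 at 91.6% or more.

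To compare levels between genes, the deposited values per transcript length (FPKM) were used. Summed over the 10 genes, they were 3.75 ± 0.08 FPKM at day 0, 63.5 ± 2.98 at day 1, 38.7 ± 17.6 at day 2 and 32.4 ± 0.67 at day 3 (SD, n = 2 each), and 48.3 ± 3.72 in sorted cells (SD, n = 3). At day 1 the order began with Hoxb1 (21.1 FPKM), Hoxb2 (14.8) and Hoxb9 (12.2), and the single libraries of Hoxb2 and Hoxb9 overlapped at 13.5 and 16.1 against 13.6 and 10.7 FPKM. At day 3 it began with Hoxb2 (13.6 FPKM), then Hoxb3 (5.03), Hoxb4 (5.02), Hoxb8 (3.87) and Hoxb7 (3.05), and Hoxb3 and Hoxb4 did not differ beyond their spread. Together Hoxb1, Hoxb6 and Hoxb9 made up 58.1% of the summed FPKM at day 1, 25.9% at day 2 and 3.17% at day 3, and 4.22% in sorted cells. Hoxb2, Hoxb3, Hoxb4, Hoxb7 and Hoxb8 made up 37.5%, 69.8% and 94.2% on those days, and 90.4% in sorted cells. Both sets were chosen from these values, so the shares carry no test.

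**Figure D4:**
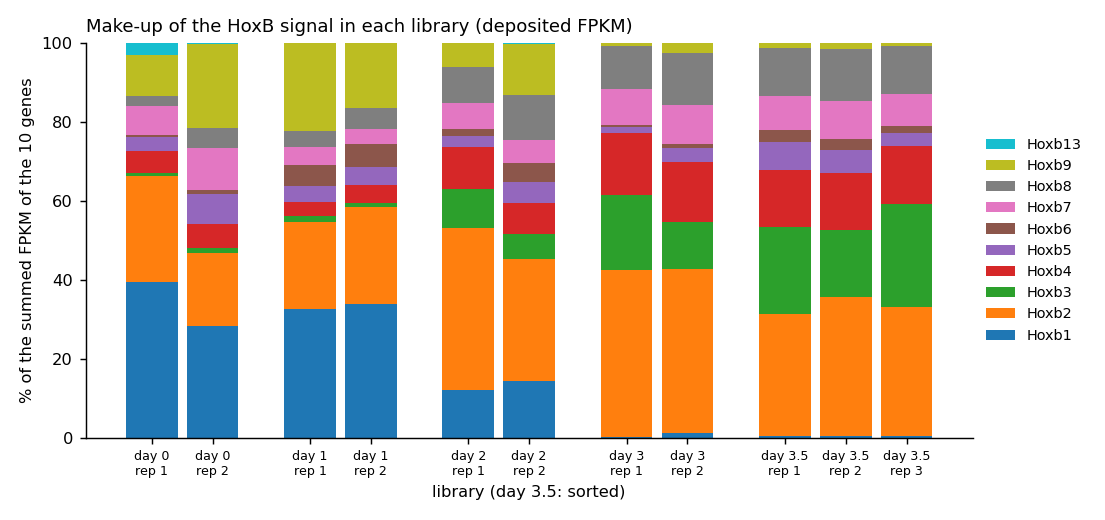
Share of each HoxB gene in the summed FPKM of the cluster, in each library (stacked bars, percent). Hoxb1, Hoxb6 and Hoxb9 together average 58.1% at day 1 and 3.17% at day 3.

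In the HoxB genes, the median of replicate 2 minus replicate 1 was highest on day 2, at 1.15 on the log2 scale. It was 0.55 at day 0, 0.13 at day 1 and 0.29 at day 3. Gaps of opposite sign offset each other in this median, and at day 3 they ran between -0.58 and 1.62. By another measure, the SD of the gap over all genes, the day 2 replicates differed least. That SD was 0.43 on the log2 scale, against 0.67 at day 0, 0.64 at day 1 and 0.54 at day 3. At day 2, replicate 2 was higher than replicate 1 in all 9 genes tested in the 11-library fit. The ratio was 1.4 for Hoxb4, 2.22 for Hoxb1, 2.29 for Hoxb8, 3.7 for Hoxb5, 4.12 for Hoxb9 and 4.21 for Hoxb6. In 5 of the 9 the gap lay in the upper 2.5% of all genes, and at day 3 this held for 3, Hoxb1, Hoxb5 and Hoxb9. Such gaps were not particular to HoxB. At day 2 they were also seen for Hoxc8 (3.56 times), Hoxd1 (2.92 times), Hoxc13 (2.73 times, under 1 CPM) and Hoxc5 (2.5 times). Hoxa2, Hoxa10, Hoxc6 and Hoxd9 were instead lower in day 2 replicate 2, with ratios between 0.827 and 0.982. Of the 15 genes on the retinoic acid list, 13 were higher in day 2 replicate 2, with ratios between 0.717 and 3.97, a median of 1.29 and 2 genes in the upper 2.5% of all genes. The 2 were Dhrs3, a retinaldehyde reductase, at 3.97 times and Cyp26b1, which breaks down retinoic acid, at 3.03 times. The summed pluripotency markers of the 2 libraries were 31.9 and 34.7 CPM, and whether other differences between them play a part was not tested.

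**Figure D5:**
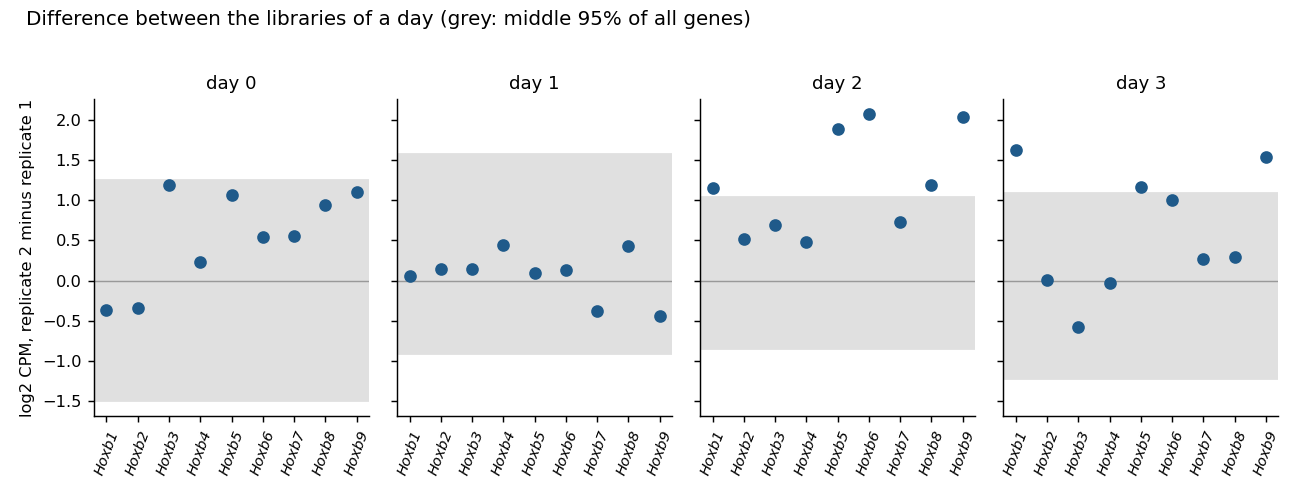
Log2 CPM of replicate 2 minus replicate 1 for each HoxB gene except Hoxb13 on days 0 to 3, with the range of all genes after leaving out 2.5% at each end. At day 2 all 9 genes lie above 0, with the highest gap at 2.07 for Hoxb6.

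Sorted day 3.5 cells and unsorted day 3 cells were set against each other in the 11-library fit, in which Hoxb13 did not pass the filter. By edgeR, 0 of the other 9 genes were called, against 0.435% of 17006 genes higher and 2.93% lower. At an unadjusted p under 0.05 there were 5, and the share of all genes at that threshold was not counted. DESeq2 called 3 (Hoxb3, Hoxb5 and Hoxb6), beside 209 of 24765 genes higher and 752 lower. The log2 fold changes nearest the threshold were 1.07 ± 0.30 for Hoxb3 (adjusted p = 0.0873) and 2.31 ± 0.65 for Hoxb6 (adjusted p = 0.0871). For Hoxb2, Hoxb3, Hoxb4, Hoxb5, Hoxb6, Hoxb7 and Hoxb8, every sorted library lay above both day 3 libraries. For Hoxb1 and Hoxb9 the libraries overlapped. The share of all genes with every sorted library above both day 3 libraries was not counted, so this separation carries no test. Hoxb4, as an example, had 42.1, 35.2 and 35.3 CPM in sorted cells against 26.1 and 25.5 CPM in unsorted ones. Markers of several other cell types also differed. Extraembryonic endoderm markers (8 genes) summed to 34.6 to 40.2 CPM in sorted libraries against 142.7 to 182.6 CPM at day 3, with 6 of 7 tested called lower. Mesoderm and neuromesodermal markers (7 genes) summed to 12.1 to 15.1 against 57.5 to 75.7 CPM, with 1 of 4 tested called lower. Most of that sum at day 3 was Pdgfra, at 69.6 and 42.9 CPM, while Msgn1 and Mesp1 were at 0 in the sorted and the day 3 libraries. Pluripotency markers summed to 3.59 to 6.87 against 16.1 to 22.2 CPM, with Pou5f1 at 0 in 2 of the 3 sorted libraries. Neuron markers overlapped, at 710.2 to 1164 against 744.3 to 895.4 CPM, with 0 of 5 called by edgeR. Their part in the HoxB levels was not tested.

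Some counts may be shared between overlapping genes, because neither the annotation nor the strand setting of the counting is stated in the labels or processing notes. The antisense gene Gm11536 overlaps Hoxb3 over 5810 bases, and Hoxb5os overlaps Hoxb5 over 2786 and Hoxb6 over 9094 bases. Group means were at most 0.17 CPM for Gm11536 and 0.07 CPM for 0610040B09Rik, a RefSeq synonym of Hoxb5os. The antisense gene Hoxb3os overlaps Hoxb2 over 3488 bases and Hoxb3 over 4859 bases. Its CPM was 0.82 and 0.73 on day 0, 3.36 and 4.94 by day 1, 10.04 and 10.5 by day 2, 15.3 and 14.7 by day 3, and 20.0, 17.4 and 18.2 in sorted cells. By group means, Hoxb3os was lowest on day 0 and highest in sorted cells, as were Hoxb2, Hoxb3, Hoxb4, Hoxb7 and Hoxb8. Of the HoxB antisense and noncoding RNAs, 3 could be tested, and Hoxb3os was the 1 that rose by day 1 (log2 fold change 2.42 ± 0.31, adjusted p = 0.00141). RefSeq draws Hoxb3 across 96307101 to 96347930, a span that includes Hoxb4, whereas GENCODE does not, so the division of reads between Hoxb3 and Hoxb4 is uncertain. Of the 8 flanking genes tested, 1 rose by day 1, a share like the 12.0% of all genes. It was Skap1 (log2 fold change 2.90 ± 0.66, adjusted p = 0.0158), which encodes an adaptor of T cell signalling. At day 3, 3 of the 8 were lower than at day 1 and 0 higher, beside 18.2% of all genes lower and 18.9% higher. The 3 were Calcoco2 (-6.98, adjusted p = 4.89e-05), Skap1 (-2.66, adjusted p = 0.0111) and Ube2z (-0.95, adjusted p = 0.00109).

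In the HoxA, HoxC and HoxD clusters, 7 of 7 tested genes of paralog groups 1 to 4 rose by day 1. In groups 5 to 8 it was 4 of 7 and in groups 9 to 13 0 of 6, with 0 lower in any of the 3. Over all genes, 12.0% rose and 8.91% fell. Of the 14 genes of groups 9 to 13 in the count table, only 6 were tested. In groups 9 to 13, 3 genes (Hoxa9, Hoxa10 and Hoxc9) had an unadjusted p under 0.05 by edgeR, and DESeq2 called 0. All 3 were lower at day 1, with low means of 0.62, 0.69 and 0.11 CPM against 1.52, 1.65 and 0.49 CPM at day 0. What share of all genes reached such an unadjusted p was not counted. By day 3, 3 of the first set were higher and 1 was lower than at day 1, beside 18.9% and 18.2% of all genes. Hoxd3, the paralog of Hoxb3, was higher at day 3 (3.88 on the log2 scale, adjusted p = 2.43e-05). In the second set 2 of 7 fell (Hoxa5 and Hoxa7) and in the third 2 of 6 (Hoxa10 and Hoxd13), with 0 higher in either. Whether these shares differ from the 18.2% was not tested.

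Of 9 TALE cofactor genes, 5 rose by day 1, with Meis1 at a log2 fold change of 2.25, and at day 3 4 were higher than at day 1 and 0 were lower. The shares over all genes were 12.0% higher and 8.91% lower at day 1, and 18.9% and 18.2% at day 3. Of 15 genes for retinoic acid receptors, synthesis, binding and breakdown, 8 rose and 1 fell by day 1. Cyp26a1, an enzyme that breaks retinoic acid down, had the smallest adjusted p of the list (log2 fold change 5.19 ± 0.31, adjusted p = 6.73e-05). At day 3, Cyp26a1 had 16.4 and 10.5 CPM against 234.8 and 203.0 CPM at day 1 (-4.02 ± 0.29, adjusted p = 3.07e-05), and 4 of the 15 were higher and 6 lower than at day 1. Of 13 hindbrain and caudal regulators, 6 rose and 2 fell by day 1. At day 3, 3 of the 13 were higher and 4 lower than at day 1, beside 18.9% and 18.2% of all genes, and Gbx2, an early gene of the anterior hindbrain, was among the lower ones (-3.54 on the log2 scale, adjusted p = 9.71e-05).

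Genes with courses closest to Hoxb1 and Hoxb9 were ranked by Pearson r of log2 CPM over the 11 libraries, among 11448 genes. For Hoxb1 they included Slc1a5 (r = 0.98), Tbc1d1, Gatm and Lcmt2 (r = 0.96). Pearson r compares the shape of a course and not the size of its changes. Tbc1d1 averaged 102 CPM at day 0, 141 at day 1 and 68.3 at day 3, and Lcmt2 14.4, 20.4 and 12.2. Hoxb1 averaged 3.64, 51.7 and 0.53 CPM on those days. Slc1a5 encodes an amino acid transporter. For Hoxb9 they included Lpar1 (r = 0.97), Rgs10, Raet1e and Pmp22 (r = 0.95). Lpar1, a receptor for lysophosphatidic acid, averaged 18.0 CPM at day 0, 46.1 at day 1, 25.9 at day 2 and 12.8 at day 3.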

How the data were processed

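The HoxB genes and all gene lists were chosen with earlier results of these data known. Expected counts per gene were deposited by the authors, with fractional values in 104 genes and in 0 HoxB genes, and were rounded. The deposited log2 (voom) values are log2 CPM with 0.5 added to each count and 1 to each library total, as recomputed from the counts. FPKM values were made by the authors and used as deposited. The submitters' processing notes name TopHat2 2.0.4, HTSeq 0.6.1, Cufflinks 2.1.1, bcl2fastq 1.8.3, CASAVA and limma without roles, and the builds GRCm38 and mm10. Neither the annotation nor the strand setting is given in the sources used here.

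The test was that of edgeR 4.0.16 in R 4.3.3 (glmQLFTest, TMM, filterByExpr with a minimum count of 10, group means, Benjamini-Hochberg over all genes). Days 0 to 3 were fitted on 8 libraries (16810 genes) and day 3.5 against day 3 on 11 (17006 genes). The SE is the log2 fold change over the square root of F. The fits were tested on simulated data. The floor is 3 counts in a library and allows for counting error alone. Named genes were all 10 HoxB genes, up to 4 called genes per list and comparison with the smallest adjusted p, paralogs, and the 5 genes closest to Hoxb1 and Hoxb9. Hoxd4, Tubb3 and Foxc2 were not analysed here. Some genes that these rules select are not reported here. Alternatives were RLE size factors, library totals, no filter, DESeq2 1.42.0, fits on other sets of libraries, a replicate block, a GC offset, limma 3.58.1 on FPKM with pseudocounts 1 and 0.1 or on voom values, and leaving out each library. Replicate numbers were not taken to pair libraries in the reported fit. The correlation of replicate differences between days ran between -0.45 and 0.18, which cannot exclude that equal numbers share a culture.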

Additional observations from a re-analysis of the deposited data

How the results depend on the processing

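The rise of 9 HoxB genes by day 1 and the change of 9 over days 0 to 3 each stayed at 9 without any 1 library. Over the 5 groups, sorted cells included, the same genes had their highest mean at day 1 with TMM, library totals or FPKM. They were Hoxb1, Hoxb5, Hoxb6, Hoxb9 and Hoxb13 (near the floor). For Hoxb5 the day 1 mean of 9.46 CPM was not beyond the spread of the sorted mean, 9.32 ± 4.34 CPM (SD, n = 3). Counts of HoxB genes called between days 1 and 2 (2 in the reported fit) were 1 under log2(FPKM + 0.1), 1 under unfiltered log2(FPKM + 1) and 0 under voom values. Over all genes, these settings called 2117 of 16386, 2166 of 27072 and 2742 of 24765, against 3302 of 16810 in the reported fit. Between days 2 and 3 (1 reported) the HoxB counts were 3 without a filter on counts, with DESeq2, with all 11 libraries and with the GC offset (Hoxb1, Hoxb6 and Hoxb9). The count was 0 under unfiltered log2(FPKM + 1). Over all genes, these settings called 1608 of 24339, 1433 of 24339, 1431 of 17006, 2451 of 15592 and 262 of 27072, against 684 of 16810 reported. For day 3.5 against day 3 (0 reported) they were 3 without a filter on counts and with DESeq2, and 2 with days 3 and 3.5 alone and with the GC offset. Leaving out 1 library gave 1 to 3 calls between days 1 and 2, 0 to 2 between days 2 and 3, 4 to 6 for day 3 against day 1, 6 to 8 for day 3 against day 0, and 0 to 1 for day 3.5 against day 3. The cause of these differences was not tested.

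Whether equal replicate numbers pair libraries of different days is not stated in the labels. With the replicate block, 2 HoxB genes (Hoxb1 and Hoxb9) were called between days 2 and 3, beside 393 of 16810 genes in all. Under that block Hoxb7 differed by -0.014 on the log2 scale at day 3 against day 1, where the GC offset gave -0.055. Other changes of sign were near 0, at 0.0081 (log2(FPKM + 1), filtered or not), 0.034 (log2(FPKM + 0.1)) and 0.042 (voom) for Hoxb8 at day 3 against day 2, and 0.012 (log2(FPKM + 0.1)) for Hoxb1 at day 3.5 against day 3. Leaving out 1 library changed the sign of these uncalled log2 fold changes. For day 2 against day 1 the ranges were -0.41 to 0.11 for Hoxb2, -1.89 to 0.029 for Hoxb5, -0.48 to 0.27 for Hoxb7 and -0.25 to 0.96 for Hoxb8. For day 3 against day 2 the ranges were -0.21 to 0.29 for Hoxb2, -1.85 to 0.12 for Hoxb5, -0.23 to 0.50 for Hoxb7 and -0.57 to 0.61 for Hoxb8. For day 3 against day 1 the range was -0.16 to 0.22 for Hoxb7. For day 3 against day 0 the ranges were -1.38 to 0.30 for Hoxb9 and -1.77 to 1.10 for Hoxb13. For day 3.5 against day 3 the ranges were -0.94 to 0.98 for Hoxb1 and -0.38 to 1.24 for Hoxb9. Of 25 changes of sign, 0 were called in either fit. With 2 libraries a day and 3 sorted ones, small differences were not detectable, and levels under 3 counts are limited by depth.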
